A study of Mus musculus with 3 samples.

Results

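The genes described here are the 3 retinoic acid receptors (Rara, Rarb and Rarg), the 3 retinoid X receptors (Rxra, Rxrb and Rxrg), the retinoid handling genes Dhrs3, Crabp1 and Cyp26b1, and Tgm2, a target gene of retinoic acid. They were taken by NCBI Gene ID, and 9 of these 10 genes were listed in at least 1 of the 3 libraries, among 16742 genes listed in all. The control RNA came from lin- bone marrow cells, that is, marrow depleted of cells with mature lineage markers, of wild type C57BL/6 mice. The RNA of TR1 and of TR9 came from GFP+ bone marrow cells of TBLR1-RARα (TR) leukemia mice on the same background. Each library pooled 3 mice, whose age the labels give as 6 to 8 weeks, and no condition had a second library. TR1 and TR9 each go back to 1 primary leukemia mouse, whose lin- donor marrow cells had been infected with an MSCV retrovirus carrying a TR cDNA and GFP on 1 transcript, and the cells sequenced came from the third generation of transplanted mice. Control and leukemia cells therefore also differed in how they were isolated, by lineage depletion or by sorting for GFP.

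Retinoic acid receptors bind DNA as heterodimers with retinoid X receptors. Without ligand these dimers hold corepressors at their target genes, and all-trans retinoic acid (ATRA) exchanges the corepressors for coactivators. In promyelocytic leukemia the RARα moiety is fused to a partner protein, here TBLR1, and this fusion blocks granulocytic differentiation. Cells make retinoic acid from retinol by way of retinal, and enzymes of the CYP26 family degrade it. Several of the receptor and enzyme genes are themselves induced by retinoic acid, Rarb, Cyp26a1 and Dhrs3 among them.

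Levels are given as the expected count, an estimate of the reads of a gene that need not be whole, and as FPKM, which scales it for transcript length and library total and so lets genes be compared. Expected counts summed to between 5129662 and 5571409 per library. A gene was called different between 2 libraries at a false discovery rate of at most 0.001 by an exact Poisson test and an absolute log2 ratio of FPKM of at least 1, the thresholds of the study's methods. Such a call compares the reads of 2 libraries and not the conditions, because 1 library per condition leaves the spread between mice unknown. Intervals below are 95% exact intervals of the log2 ratio of counts per library total, and they cover counting error only. The median log2 ratio of all genes against control was −0.29 for TR1 and −0.12 for TR9. TMM scaling, which sets the bulk of the genes level, took out a shift of −0.25 for TR1 and −0.11 for TR9. The share of lower genes among all calls in TR1 was 61.7% as deposited, 48.4% with TMM and 73.3% with TPM scaling.

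The labelled cell types were checked against marker lists. All 8 stem and progenitor markers were detected in control, with Kit at 73.5 and Cd34 at 75.8 FPKM. The control cells also held erythroid and megakaryocyte RNA, as Car1 at 1253 and Pf4 at 375 FPKM show. Of the 7 stromal markers, Col1a1 had 265, Col1a2 222 and Cxcl12 8.09 FPKM in control. The others were low there, with Col3a1 at 1.10, Lepr at 1.49, Kitl at 0.56 and Pdgfrb at 4.87 FPKM. The 6 mast cell, basophil and eosinophil markers, led by Prg2 at 563 FPKM, summed to 1104 FPKM in control, against 74.8 for TR1 and 86.3 for TR9. All 6 were called lower in both leukemias, where 8.39% of all genes were. In TR1 and TR9 the 4 promyelocyte markers together reached 20452 and 23289 FPKM, against 4100 in control, and the 6 erythroid markers summed to 2.08 and 2.43 FPKM, against 1648. No count of GFP was used.

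In TR1, 3 of the 8 genes tested were higher than in control and 2 were lower, where 8.09% of all genes were called higher and 13.0% lower. In TR9, 5 of 9 genes were higher and 1 was lower, against 9.37% and 10.8% of all genes. Rara, Rarb and Rxra were higher and Tgm2 was lower in both leukemia libraries, Rarg was higher in TR9, and Dhrs3 was lower in TR1 and higher in TR9. Of all genes, 5.67% were called higher and 8.39% lower in both, and 0.113% were called in opposite directions. Both comparisons share the control library, and the genes were chosen with earlier results of these data known, so these counts describe the genes and are no test of the group.

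**Figure D1:**
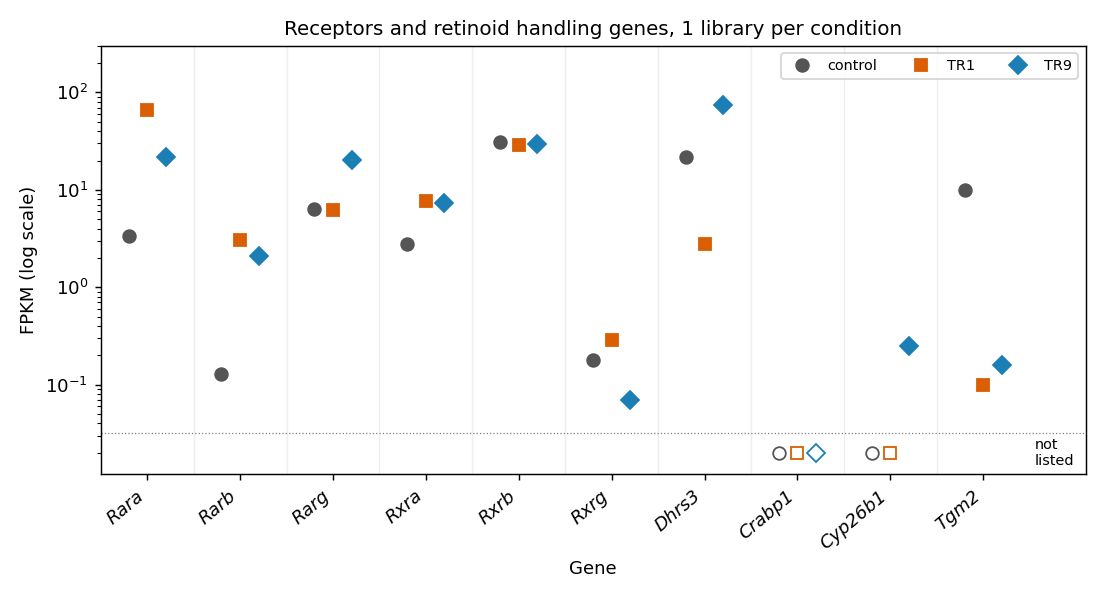
FPKM (log axis) of the 10 genes in the control, TR1 and TR9 libraries, 1 point per library, with open symbols under the dotted line for a gene that was not listed in that library. Rara runs from 3.36 in control to 66.1 in TR1, Rxrb lies between 29.0 and 31.0 in all 3, and Dhrs3 lies below control in TR1 and above it in TR9.

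Rara, the receptor gene that takes part in the fusion, had an expected count of 58.9 in control, and of 1168 and 359 in TR1 and TR9. In FPKM these were 3.36, 66.1 and 22.0. These expected counts were not whole, as arises where reads match more than 1 gene, whereas those of Rarb and Rarg were whole in every library. Counts that were not whole occurred for 19.9% to 21.2% of the genes listed in a library. Control was the lowest and TR1 the highest library. Rara was 19.7-fold higher in TR1 than in control, with a log2 ratio of 4.30 (95% interval 3.91 to 4.69), and 6.54-fold higher in TR9, with a log2 ratio of 2.71 (2.30 to 3.13). Between the leukemias it was 3.01-fold lower in TR9 than in TR1 (log2 ratio −1.59, interval −1.76 to −1.41), which was also a call. Rara stood at rank 9513 of the 15302 genes listed in control and at rank 1041 of 14642 in TR1.

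The TR cDNA of the vector holds TBLR1 and RARα sequence, and 1 value is given per mouse gene. Reads of the vector and of the mouse's own Rara therefore cannot be told apart in these values. The same holds for the mouse's own gene of TBLR1. The partner gene Tbl1xr1, which encodes TBLR1, had 18.9 FPKM in control, against 25.8 for TR1 and 23.2 for TR9. Its log2 ratio was 0.45 for TR1 (interval 0.32 to 0.58) and 0.30 for TR9 (0.16 to 0.43), under the ratio needed for a call.

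Rarb, a receptor gene whose promoter carries a classical retinoic acid response element, had an expected count of 2 in control, against 48 for TR1 and 30 for TR9, or 0.13, 3.07 and 2.09 FPKM. Nearly all of its counts thus came from the leukemia libraries. The log2 ratio was 4.56 for TR1 (interval 2.63 to 7.65) and 4.01 for TR9 (2.03 to 7.11), both of them calls, and the intervals are wide because control had so few counts. TR9 and TR1 were not called different, with a log2 ratio of −0.55 (interval −1.27 to 0.13). In level it stayed the lowest of the 3 retinoic acid receptors in every library.

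The DNA before the start sites was searched for the repeat that these receptors bind. A retinoic acid response element was taken as 2 half-sites in the same orientation, 5 bases apart and on either strand, where a half-site could be AGGTCA as in the consensus, or 1 of its known variants, which are AGTTCA and besides it GGTTCA and also the mixed form GGGTCA. Both genes found below are textbook carriers of such an element, so the match is a description and no test. It was present in 32 of 32851 windows of 300 bases around RefSeq start sites (0.0974%). Among 18 such windows of 9 of the 10 genes, Tgm2 having no entry in the table, it was found in that of Rarb, and among 83 windows of the other pathway genes in that of Cyp26a1. A spacing of 2 bases occurred in 0.268% of all windows and in none of these genes, so no match overlapped another. Both windows are shown 5′ to 3′ for the 250 bases before the start site (RefSeq, GRCm38.p6), with the repeat in capitals, because the search found the repeat in these 2 windows and both genes were called in a comparison. The Rarb window is chr14:16575477-16575726 on the minus strand, with the repeat 53 to 37 bases before the start site. The Cyp26a1 window is chr19:37697558-37697807 on the plus strand, with the repeat on the other strand, 32 to 16 bases before the start site.
Rarb: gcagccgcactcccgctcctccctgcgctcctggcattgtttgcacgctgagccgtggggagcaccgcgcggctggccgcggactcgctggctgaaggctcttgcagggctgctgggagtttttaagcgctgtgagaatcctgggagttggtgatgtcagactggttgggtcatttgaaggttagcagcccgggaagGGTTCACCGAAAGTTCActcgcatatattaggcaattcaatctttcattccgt
Cyp26a1: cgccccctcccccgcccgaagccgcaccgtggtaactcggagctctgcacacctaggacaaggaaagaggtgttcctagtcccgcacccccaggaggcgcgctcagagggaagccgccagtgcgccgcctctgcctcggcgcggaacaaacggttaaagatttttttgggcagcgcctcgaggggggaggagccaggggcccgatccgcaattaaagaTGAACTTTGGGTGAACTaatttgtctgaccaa
Read in the direction of the repeat, the elements are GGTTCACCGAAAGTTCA in Rarb and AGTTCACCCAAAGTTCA in Cyp26a1. The genes differed in which library held their counts, since Rarb was higher than control in both leukemias and Cyp26a1, described below, in TR9. A match of letters does not show that a receptor was bound there.

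Rarg, the receptor that is abundant in skin and also expressed in hematopoietic stem cells, had an expected count of 90 in control, 89 for TR1 and 270 for TR9, or 6.33, 6.18 and 20.2 FPKM. Only TR9 stood apart. The log2 ratio against control was 1.67 in TR9 (interval 1.33 to 2.04), a 3.19-fold difference that was called, and −0.03 in TR1 (−0.48 to 0.40), which was not and which was above 0 with TMM scaling. Compared directly, Rarg was 3.27-fold higher in TR9 than in TR1 (log2 ratio 1.71, interval 1.37 to 2.08). Rara and Rarg therefore differed between the leukemias in opposite directions.

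Summed over the 3 retinoic acid receptors, FPKM was 9.82 in control, against 75.4 for TR1 and 44.2 for TR9. Rarg made up 64.5% of this sum in control, Rara 87.7% in TR1, and in TR9 Rara held 49.6% and Rarg 45.6%. The 3 retinoid X receptors together had 34.0, 37.0 and 37.0 FPKM. Per unit of retinoid X receptor RNA there was thus 0.289 of retinoic acid receptor RNA in control, 2.04 for TR1 and 1.20 for TR9, in which vector reads and Rara reads are not separated.

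**Figure D2:**
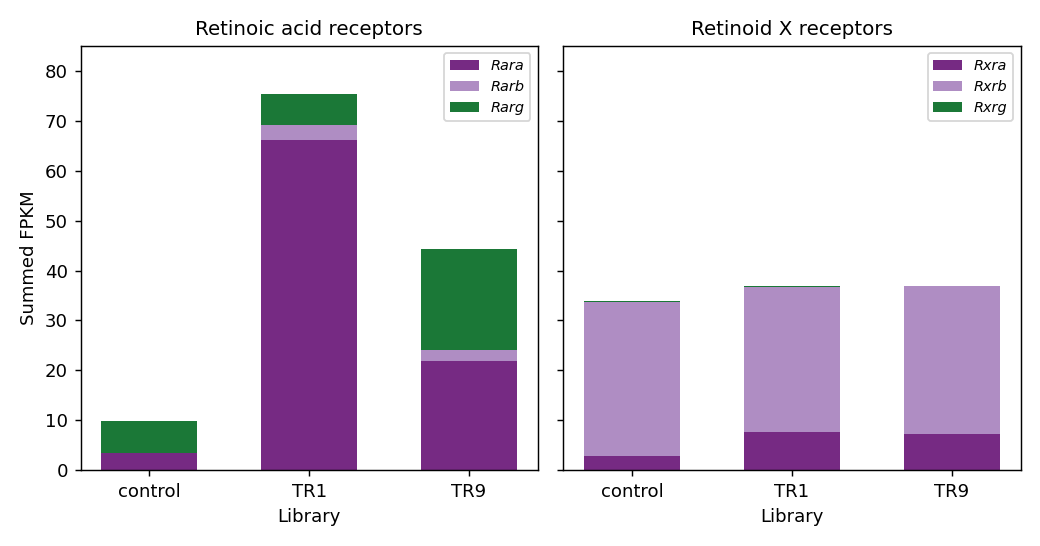
Stacked bars of FPKM of the 3 retinoic acid receptors (left) and the 3 retinoid X receptors (right) in each library. The retinoic acid receptor bar goes from 9.82 in control to 75.4 in TR1 and 44.2 in TR9, while the retinoid X receptor bar stays between 34.0 and 37.0.

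Rxra, which encodes the main heterodimer partner in myeloid cells, had an expected count of 81 in control, 228 for TR1 and 199 for TR9, or 2.78, 7.68 and 7.29 FPKM. Both leukemias lay above control and close to each other. The log2 ratio was 1.47 for TR1 (interval 1.10 to 1.86) and 1.39 for TR9 (1.01 to 1.79), both calls, and −0.08 between TR9 and TR1 (−0.36 to 0.20). When edgeR's exact test was run with the biological variation between mice assumed to be 0.2 (coefficient of variation), neither of its calls was made, nor was that of Rarg in TR9 against control. Of the 4 promyelocyte markers, 4 were called higher in TR1 and 3 in TR9, where 8.09% and 9.37% of all genes were. None of these markers was at 0 in any library, and their part in the Rara, Rarb and Rxra differences was not tested.

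Rxrb, a broadly expressed partner receptor, had an expected count of 422 in control, 406 for TR1 and 378 for TR9, or 31.0, 29.0 and 29.6 FPKM. It was the most abundant retinoid X receptor RNA in each library, with 91.3% of the family's FPKM in control and 78.4% and 80.1% in TR1 and TR9. Its log2 ratios were −0.10 for TR1 (interval −0.28 to 0.12) and −0.07 for TR9 (−0.27 to 0.14), and both were above 0 with TMM scaling. Rxrg, which is known from muscle and brain, had 2.08, 3.44 and 0.75 expected counts, which is at the detection floor of 3 counts, and no ratio is given.

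**Figure D3:**
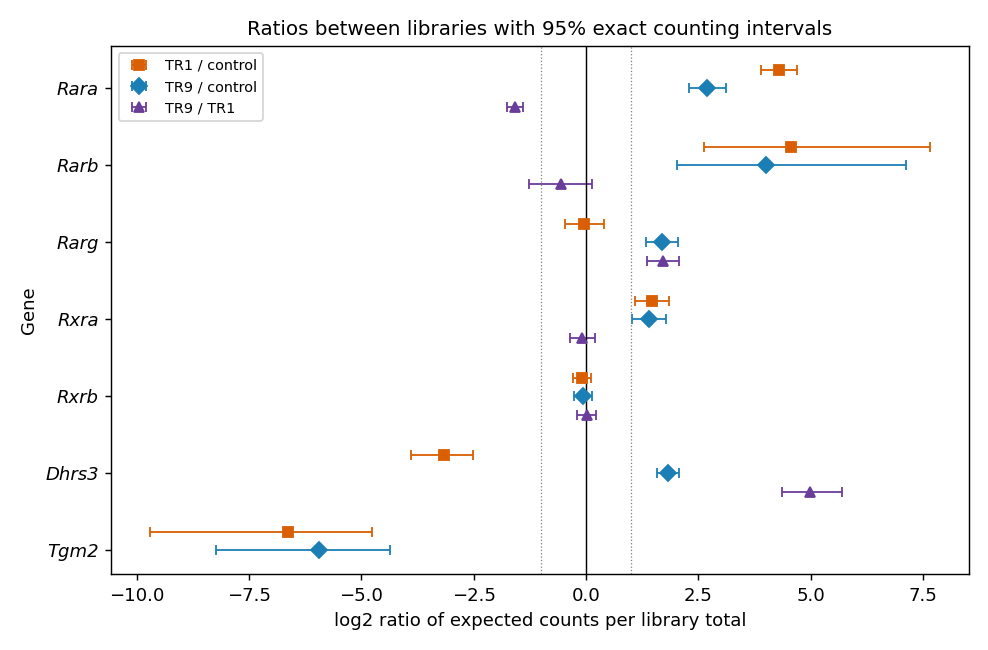
Log2 ratios of expected counts per library total for 7 genes, with 95% exact counting intervals as bars. Squares are TR1 against control, diamonds TR9 against control and triangles TR9 against TR1, with dotted lines at −1 and 1 and no triangle for Tgm2, which had at most 3 counts in both. Rxrb lies at 0 in all 3 comparisons and Dhrs3 lies on opposite sides of 0 in TR1 and TR9.

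Dhrs3, the reductase that turns retinal back into retinol and so limits the making of retinoic acid, had an expected count of 185 in control, 21 for TR1 and 615 for TR9. In FPKM these were 21.5, 2.78 and 74.0. The leukemia libraries lay on either side of control, and Dhrs3 was at rank 951 of the 14817 genes listed in TR9. It was 7.74-fold lower in TR1 than in control (log2 ratio −2.95, interval −3.89 to −2.51) and 3.44-fold higher in TR9 (1.78, interval 1.59 to 2.08). Between the leukemias it was 26.6-fold higher in TR9, with a log2 ratio of 4.73 (interval 4.37 to 5.69). The mean transcript length that the files list for Dhrs3 was 1577 bases in control, against 1367 for TR1 and 1628 for TR9, and the ratio of counts in TR1, −3.16, was lower than that of FPKM. The gene's span overlaps that of Vps13d, which encodes a lipid transfer protein and had a log2 ratio of −0.30 (TR1) and −0.02 (TR9).

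The other handling genes among the 10 were at or near 0. Crabp1, a cytosolic binding protein of retinoic acid, was not listed in any library, which allows up to 3 counts in each, the detection floor used here. Cyp26b1, which degrades retinoic acid, had 6 expected counts in TR9, or 0.25 FPKM, and was not listed in control or TR1. Set against the floor of 3 counts, Cyp26b1 was 2.14-fold higher in TR9 than in control, with counting error left out. The lower end of the 95% interval was a log2 ratio of 0.33, and the difference was not called.

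Tgm2, a transglutaminase induced by retinoic acid in myeloid cells and also abundant in macrophages and endothelium, had an expected count of 197 in control, 2 for TR1 and 3 for TR9, or 10.1, 0.10 and 0.16 FPKM. It was nearly absent from both leukemia libraries. The log2 ratio was −6.65 for TR1 (interval −9.70 to −4.77) and −5.97 for TR9 (−8.23 to −4.37), and both were calls. Of 10 monocyte and macrophage markers 8 were called lower in both leukemias, where 8.39% of all genes were. C1qa was among them with 17.8, 0.67 and 0.37 FPKM. Vcam1, with 25.1, 164 and 291 FPKM, was called higher in both, and Adgre1, with 2.57, 11.96 and 4.24 FPKM, higher in TR1. The list summed to 150 FPKM in control, 189 in TR1 and 311 in TR9. Vcam1 alone made up most of the sums in TR1 and TR9. C1qc was the only marker of that list at 0, in TR1. Of 5 endothelial markers 4 were called lower in both, with sums of 21.0, 6.31 and 7.92 FPKM, and Kdr, Tek and Emcn were at 0 in both leukemias and Cdh5 in TR1. Of 7 stromal markers 3 were called lower in both, with sums of 503, 17.3 and 47.2 FPKM and none at 0, and Col1a1 and Col1a2 made up most of the sum in control. Pdgfrb, with 4.87, 8.94 and 33.9 FPKM, and Kitl, with 0.56, 0.42 and 4.17 FPKM, were called higher in TR9, and Lepr, with 1.49, 3.29 and 1.07 FPKM, higher in TR1. Col3a1, with 1.10, 1.05 and 0.52 FPKM, was not called in either. The part of these cells in the Tgm2 difference was not tested, and in such bulk samples fewer cells of a type and less RNA per cell cannot be told apart.

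By nearness of log2 FPKM over the 3 libraries, among 10101 genes with at least 1 FPKM in each, the genes most like Rara were Clec4d, Spata13 and Dgat2, at distances of 0.56, 0.68 and 0.69. For Rxra they were Hip1, Aatk and 2310009B15Rik, at 0.12, 0.18 and 0.26. With only 3 libraries this measure describes the order and size of the levels and nothing further.

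The remaining genes of the pathway were taken from 7 lists of 80 genes, of which 68 were listed in a library. In TR1, 8 of 67 were higher and 10 lower than in control, and in TR9, 10 of 65 were higher and 6 lower. The shares over all genes were those given above, 8.09% and 13.0% for TR1 and 9.37% and 10.8% for TR9. With TMM and with median-of-ratios scaling the counts in TR1 became 9 higher and 6 lower. With counts under the floor set to 3, the median log2 ratio of counts over the lists was −0.08 in TR1 and 0.10 in TR9, beside −0.10 and 0.07 over all genes tested.

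Of 9 genes of uptake, transport and storage, 4 were listed, and Dgat1, an acyltransferase that can esterify retinol besides making triglycerides, was higher in both leukemias. It had 8.24 FPKM in control, 24.4 in TR1 and 32.8 in TR9, with log2 ratios of 1.57 and 1.99. The carrier gene Rbp4 and the membrane receptor Stra6 were not listed in any library.

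Of 19 genes that convert retinol and retinal, 15 were listed. In TR1, 2 of 15 tested were higher and 1 lower, where 8.09% of all genes were higher and 13.0% lower. In TR9, 1 of 13 was higher and 1 lower, against 9.37% and 10.8% of all genes. Rdh12, a retinal reductase, was higher in both leukemias, with 2.52 FPKM in control, 23.5 for TR1 and 8.07 for TR9, and it was called lower in TR9 than in TR1 (log2 ratio −1.54). Dhrs4, a carbonyl reductase, was lower in both, with 39.2, 10.7 and 15.9 FPKM. Dhrs9, a retinol dehydrogenase singled out after its values were seen, had 1, 93 and 12 expected counts and was called higher in TR1. Rdh10, the main retinol dehydrogenase of the embryo, had 4.21, 3.35 and 2.54 FPKM and was not called.

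Of the 4 genes of retinoic acid synthesis, Aldh1a1 was the only one called, where 13.0% of all genes were lower in TR1 and 10.8% in TR9. The others had at most 3 counts in every library, control included. Aldh1a1, the retinal dehydrogenase of stem and progenitor cells, had an expected count of 512 in control, 2 for TR1 and 23.9 for TR9, or 46.0, 0.18 and 2.29 FPKM. Its log2 ratio was −8.00 for TR1 (interval −11.1 to −6.16) and −4.33 for TR9 (−4.97 to −3.73), and it was called higher in TR9 than in TR1 with a log2 ratio of 3.67 (1.69 to 6.83). Aldh1a2 and Aldh1a3, the other retinal dehydrogenases, had 3 counts and 1 count in control and were not listed in TR1 or TR9. Of the 8 stem and progenitor markers, 4 were called lower in both leukemias, where 8.39% of all genes were. The list summed to 249 FPKM in control, 104 in TR1 and 163 in TR9. Ly6a was called higher in both, with 9.49, 26.9 and 87.6 FPKM, Flt3 was higher in TR1 and lower in TR9, with 16.2, 38.4 and 6.65 FPKM, and Kit was lower in TR1 and not called in TR9. Slamf1 was at 0 in both leukemias and Mecom in TR1, and the part of these cells in the Aldh1a1 difference was not tested.

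In binding and clearance, Fabp5, which carries retinoic acid and fatty acids, was lower in both leukemias, with 26.5, 2.89 and 3.14 FPKM and log2 ratios of −3.20 and −3.08. Crabp2, which delivers retinoic acid to the nucleus, had 3 counts in control and in TR1 and was not listed in TR9. Cyp26a1, the main retinoic acid hydroxylase, whose repeat is printed above, had an expected count of 2 in control, 3 for TR1 and 39 for TR9. The log2 ratio of FPKM in TR9 was 4.35 against control (interval 2.43 to 7.48) and 3.83 against TR1 (2.17 to 6.16), both calls. Cyp26c1, of the same family and not named by the rule, had 6 counts in TR9 and none in control or TR1. All 3 CYP26 genes thus had their highest count in TR9, but Cyp26b1 and Cyp26c1 had only 6 counts there and were not called. Dhrs3 and Rarg were also highest in TR9, whereas Rara and Rarb were highest in TR1. Rarb had 48 counts in TR1 and 30 in TR9, which was no call.

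**Figure D4:**
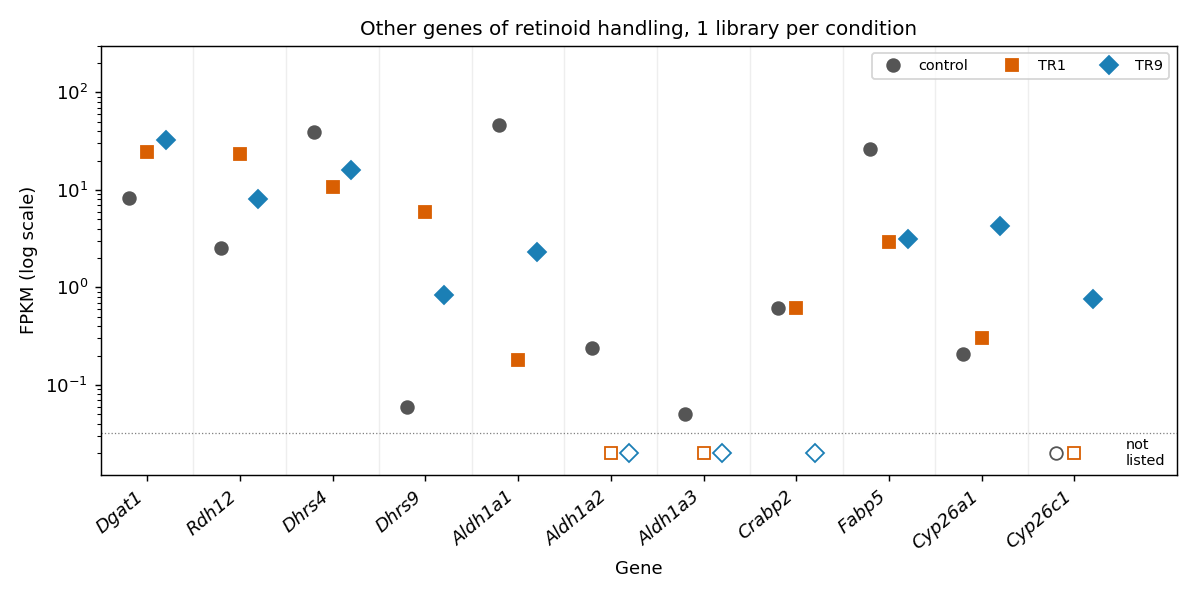
FPKM (log axis) of 11 other genes of retinoid storage, conversion, synthesis, binding and clearance in the 3 libraries, 1 point per library, with open symbols for a gene not listed there. Aldh1a1 goes from 46.0 in control to 0.18 in TR1 and 2.29 in TR9, and Cyp26a1 is at 4.28 in TR9 against 0.21 in control and 0.30 in TR1.

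Among 13 other receptors that pair with retinoid X receptors, 11 were listed and none was called in both leukemias. Of all genes, 5.67% were called higher and 8.39% lower in both. Vdr, the vitamin D receptor, had 63, 5 and 31 expected counts and was lower in TR1, and Nr4a2, an orphan receptor, had 29, 35 and 61.2 and was higher in TR9, a call not made with TPM scaling (log2 ratio 1.05). Both were named after their values were seen. The liver X receptor gene Nr1h2 and the thyroid hormone receptor gene Thra, at 30.5 and 26.1 FPKM in control, had the highest levels of this list and were not called.

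Of 10 nuclear receptor coactivators, none was higher in either leukemia, where 8.09% of all genes were higher in TR1 and 9.37% in TR9. Carm1, an arginine methyltransferase, was lower in both, with 54.7, 26.1 and 25.3 FPKM and log2 ratios of −1.07 and −1.11, just past the ratio needed for a call. With TMM and median-of-ratios scaling its log2 ratio in TR1 was −0.82 and −0.83 and no call was made. Prmt1, of the same enzyme family, was called lower in TR9 (log2 ratio −1.13) and had a log2 ratio of −0.96 in TR1, which became a call at −1.18 with TPM scaling. The acetyltransferase genes Ep300 and Crebbp were not called.

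Of 21 genes known to respond to retinoic acid, 20 were listed, with 5 higher and 4 lower in TR1 and 6 higher and 1 lower in TR9. Over all genes the shares higher and lower were 8.09% and 13.0% for TR1, and 9.37% and 10.8% for TR9. The 4 that were higher in both are all transcription regulators, in a list that was written by hand. Cebpe, which drives the late steps of granulocyte maturation, had 10.6 FPKM in control, 70.6 for TR1 and 91.0 for TR9, and Cebpb, of the same family, had 5.36, 30.1 and 25.8. Id1 and Id2, inhibitors of basic helix-loop-helix factors, had 1.84, 27.8 and 24.3 FPKM and 3.86, 46.7 and 15.4 FPKM. Id2 was called lower in TR9 than in TR1, with a log2 ratio of −1.60. Nrip1, a ligand-dependent corepressor that retinoic acid induces, was lower in both leukemias, with 13.8, 3.57 and 5.37 FPKM. These genes thus did not move in a single direction. Of the 6 later neutrophil markers, 6 were called higher in TR1 and 5 in TR9, where 8.09% and 9.37% of all genes were. Their summed FPKM was 22.7, 2071 and 4755, with none at 0 in any library. Ngp at 2833 and Camp at 1647 FPKM made up most of the TR9 sum. Between the leukemias 2 were called higher in TR9, Ngp and Camp, and 2 lower, Lcn2 and Mmp8. The part of these markers in the Cebpe and Cebpb differences was not tested.

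Compared directly over the genes described first, TR9 was above TR1 for 2 of 9 and below it for 1, where 4.34% and 2.31% of all genes were called. Those higher were Dhrs3 and Rarg, and the lower one was Rara. Of the 63 pathway genes tested, 6 were higher and 3 lower in TR9 than in TR1. Besides those named above they include Pml, the usual fusion partner of RARα in patients, singled out after its values were seen, which had 32.6 FPKM in control, against 13.1 for TR1 and 40.6 for TR9, and a log2 ratio of 1.63 between the leukemias (interval 1.48 to 1.81). With the assumed variation of edgeR's exact test, Dhrs3 was the only one of the 3 receptor and handling genes that was still called between TR9 and TR1.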

How the data were processed

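RNA-seq of 3 libraries was used, 1 per condition, grouped by the sample titles. Per the paper's methods, filtered reads had been aligned using BWA and Bowtie, and RSEM had estimated expression. The submitters' processing notes name the build mm9. The authors deposited an unnormalized expected count, an FPKM scaled for length and library total, and the mean transcript length of each gene. Versions are not given in the sources used here. Genes absent from a library's file counted as 0.

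The genes and lists were chosen with earlier results of these data known. IDs were matched to symbols through the RefSeq table of GRCm38.p6 (16698 of 16742), whose promoter windows were used for sequences. For each pair of libraries, rounded expected counts entered an exact Poisson test conditional on their sum, with false discovery rates (Benjamini-Hochberg) over all genes that either library listed. FPKM under 0.01 were set to 0.01 for ratios, and a fold against 0 was taken against 3 counts. The TMM and median-of-ratios shifts and the exact test with assumed variation came from edgeR 4.0.16 and DESeq2 1.42.0 in R 4.3.3. TPM scaling and the floor, pseudocount, count minimum and threshold alternatives were run in Python, and TPM scaling was chosen after seeing the data. Python 3.11.15, scipy 1.17.1 and matplotlib 3.10.9 were used, and the steps were tested on simulated counts.

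All 10 genes were named, with every pathway gene called in the same direction in both leukemias with at least 20 counts in a library, Cyp26a1, the Aldh1a genes, Crabp2 and Tbl1xr1. Other names were chosen after their values were seen. One gene of the pathway lists is counted but not reported here by name, and protein sequences were not used here.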

Additional observations from a re-analysis of the deposited data

Results flagged for a closer look

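The 2 leukemia libraries, set against the same control, differed from each other at the thresholds above for 10 of the genes named, as tested directly between TR9 and TR1. The log2 ratio of FPKM of TR9 over TR1 was 4.73 for Dhrs3, which was called in opposite directions against control, and 1.71 for Rarg and −1.59 for Rara. Among the pathway genes it was 3.83 for Cyp26a1, 3.67 for Aldh1a1, −1.54 for Rdh12 and −1.60 for Id2. For the genes singled out after their values were seen it was −2.83 for Dhrs9, 2.79 for Vdr and 1.63 for Pml. Each rests on 1 library per leukemia.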

How the results depend on the processing

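The number of the 10 genes called stayed at 5 in TR1, 6 in TR9 and 3 between TR9 and TR1 under TMM, median-of-ratios and TPM scaling, an FPKM floor of 0.001 or a pseudocount of 1, a minimum of 10 expected counts and a false discovery rate of 0.05. With an absolute log2 ratio of 2 it was 4, 3 and 1, and with edgeR's exact test at an assumed variation of 0.2 it was 4, 4 and 1, both by construction stricter. Pathway genes called went from 18 in TR1, 16 in TR9 and 9 between the leukemias to 11, 7 and 4 at a log2 ratio of 2 and to 11, 7 and 2 with edgeR's exact test. These 2 settings also lowered the calls over all genes, from 1318 higher and 2120 lower in TR1 to 685 and 1133 and to 657 and 992, from 1527 and 1766 in TR9 to 738 and 928 and to 717 and 830, and from 681 and 363 between TR9 and TR1 to 283 and 135 and to 188 and 94. Directions reversed only for values near 0 that were not called. With TMM and median-of-ratios scaling, the log2 ratio in TR1 was 0.22 and 0.20 for Rarg and 0.15 and 0.14 for Rxrb, and that of Rxrb was 0.041 and 0.011 in TR9 and −0.10 and −0.089 between TR9 and TR1. With TPM scaling Rxra was at 0.041 between TR9 and TR1. No paired analysis was possible because each condition had 1 library. Depth limits Rxrg, Crabp1, Cyp26b1 and the CYP26 and Aldh1a genes with a few counts.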
